A study of Mus musculus with 12 samples.

Results

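Scavenger receptors and *Cd68* were examined as 9 genes chosen by symbol, *Msr1*, *Marco*, *Cd36*, *Olr1*, *Scarb1*, *Cd68*, *Cd163*, *Stab1* and *Adgre1*, out of 54532 genes in the table of counts. Each symbol matched 1 row of that table. RNA was sequenced from cultures of bone marrow taken from C57BL/6 animals of WT genotype, whose age and sex the labels do not give. All 3 groups were grown with GM-CSF and IL-6, which drive myeloid differentiation, received their addition again when medium was renewed on day 3, and were collected on day 5. They differed in that addition, which was vehicle (DMSO, labelled 0.1), 10 µM indole-3-propionic acid (IPA) or 50 µM IPA, with 4 libraries each. IPA is a product of tryptophan made by gut bacteria, and the design asks how it changes the generation of suppressive myeloid cells from bone marrow. The labels do not say whether the 4 libraries of a group came from separate mice or cultures, so p-values measure only the spread between libraries, which may be technical.

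Scavenger receptors are surface proteins of macrophages and related cells that bind modified lipoproteins, microbes, dying cells and other polyanionic or lipid ligands, and carry them into the cell. They are sorted into classes by structure. Class A receptors (*Msr1*, also called SR-A, and *Marco*) are trimers with collagen-like stalks. Class B receptors (*Cd36* and *Scarb1*) span the membrane at both ends and take up fatty acids, oxidized lipoproteins and HDL cholesterol. *Cd68* encodes macrosialin, a class D glycoprotein of late endosomes and lysosomes that is related to the LAMP proteins. *Olr1* encodes LOX-1, a class E lectin-like receptor of oxidized LDL, *Stab1* the large class H receptor stabilin-1, and *Cd163* the class I receptor of haemoglobin-haptoglobin complexes. *Adgre1* is not a scavenger receptor. It encodes F4/80, an adhesion GPCR used as the standard surface marker of mouse macrophages.

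To show where these genes start, promoter windows of RefSeq (build GRCm38.p6, 250 bases before to 50 bases after a start) were looked up, and 6 of the 9 genes had one (all but *Msr1*, *Scarb1* and *Adgre1*). The windows of 5 genes are printed 5′ to 3′ on the gene's strand, namely *Cd36*, *Olr1*, *Cd163* and *Stab1*, whose transcripts passed the test in at least 1 comparison, and *Cd68*, which names the group. Capitals mark every match, on either strand, to GAGGAA (the core of the PU.1 motif), TGANTCA (AP-1), AGGTCA (a nuclear receptor half-site), TGACNNNGC (the core of the antioxidant response element) or TTGCNNAA (C/EBP).
Cd36, chr5:17835847-17836146, minus strand: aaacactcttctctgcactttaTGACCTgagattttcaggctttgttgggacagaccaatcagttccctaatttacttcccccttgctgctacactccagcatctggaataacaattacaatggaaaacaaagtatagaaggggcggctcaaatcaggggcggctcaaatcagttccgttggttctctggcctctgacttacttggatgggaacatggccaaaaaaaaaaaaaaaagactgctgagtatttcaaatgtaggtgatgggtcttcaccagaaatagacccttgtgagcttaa
Olr1, chr6:129507116-129507415, minus strand: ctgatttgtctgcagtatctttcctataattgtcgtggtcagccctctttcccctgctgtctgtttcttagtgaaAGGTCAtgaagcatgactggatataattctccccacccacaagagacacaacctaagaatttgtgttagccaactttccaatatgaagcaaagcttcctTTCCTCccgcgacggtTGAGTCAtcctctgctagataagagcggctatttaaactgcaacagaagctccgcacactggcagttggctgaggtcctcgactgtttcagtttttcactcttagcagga
Cd163, chr6:124304401-124304700, plus strand: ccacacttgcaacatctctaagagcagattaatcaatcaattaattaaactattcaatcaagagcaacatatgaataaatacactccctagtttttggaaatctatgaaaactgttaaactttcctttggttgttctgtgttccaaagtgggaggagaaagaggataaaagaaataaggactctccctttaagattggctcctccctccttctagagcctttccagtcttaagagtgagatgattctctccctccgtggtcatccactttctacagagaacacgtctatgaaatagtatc
Stab1, chr14:31168592-31168891, minus strand: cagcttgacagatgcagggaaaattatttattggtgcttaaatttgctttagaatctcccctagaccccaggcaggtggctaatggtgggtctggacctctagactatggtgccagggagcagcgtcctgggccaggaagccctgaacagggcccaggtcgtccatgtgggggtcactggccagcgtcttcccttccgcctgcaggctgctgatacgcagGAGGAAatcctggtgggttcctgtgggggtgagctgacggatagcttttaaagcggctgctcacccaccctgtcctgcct
Cd68, chr11:69666121-69666420, minus strand: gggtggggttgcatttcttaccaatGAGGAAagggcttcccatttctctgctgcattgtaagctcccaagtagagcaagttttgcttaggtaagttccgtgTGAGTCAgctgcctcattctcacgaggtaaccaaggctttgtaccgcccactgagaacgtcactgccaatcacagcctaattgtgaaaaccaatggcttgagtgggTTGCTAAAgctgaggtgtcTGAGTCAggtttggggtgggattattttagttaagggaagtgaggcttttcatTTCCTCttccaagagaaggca

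The *Cd68* window held 2 AP-1 matches, 149 and 24 bases before the start, 2 PU.1 cores and 1 C/EBP match. The *Olr1* window held 1 AP-1 match (60 bases before the start), 1 PU.1 core and 1 nuclear receptor half-site, the *Cd36* window 1 nuclear receptor half-site, the *Stab1* window 1 PU.1 core (30 bases before the start), and the *Cd163* window none of the 5 motifs. Of 32851 windows of the same length, 7.81% held an AP-1 match, 28.3% a PU.1 core, 16.3% a half-site, 12.4% an antioxidant response core and 10.8% a C/EBP match. These are matches of letters, with no binding measured. *Cd36* has 6 annotated transcripts and its annotated gene extends upstream of this window, so the window shows 1 of its starts.

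Gene counts summed to 20451312 to 28038612 reads in a library. Mitochondrially encoded transcripts took between 0.674% and 1.28% of them with vehicle, 0.675% and 1.06% at 10 µM, and 0.945% and 1.20% at 50 µM. Levels are given as CPM (reads scaled to a common library size) after TMM normalization over the 12 libraries, as mean ± SD, and comparisons of levels between genes as CPM per kilobase of exon. All 9 genes were among the 14894 with more than 0.5 CPM in at least 2 libraries, the genes tested. Each comparison was tested with edgeR's quasi-likelihood test on its 8 libraries, and a gene was called at a Benjamini-Hochberg adjusted p under 0.05 over the 14894 genes. Changes on the log2 scale are given with a standard error (SE) or a 95% interval. In RNA from a whole culture, fewer cells of a type and less RNA per cell cannot be told apart.

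Per length of transcript, *Cd68* was the most abundant of the genes in the vehicle cultures, at 186.5 ± 24.1 CPM per kilobase (SD, n = 4). *Adgre1* followed at 62.7 ± 4.76 and *Msr1* at 52.1 ± 3.18 CPM per kilobase, and the ranges of these neighbours overlapped. *Cd36* (30.4 ± 4.04), *Scarb1* (19.4 ± 1.05) and *Olr1* (11.9 ± 0.963) each stood apart from the next in the order. *Marco* (5.61 ± 3.04) and *Stab1* (4.76 ± 0.813) overlapped each other. *Cd163* was the lowest, at 0.547 ± 0.0893 CPM per kilobase, which rested on 54 to 95 reads in a library. Among all genes tested with an exon length, *Cd68* lay at the 98.3rd percentile of levels per length, *Adgre1* at the 94.4th, *Msr1* at the 93.3rd, *Cd36* at the 87.5th and *Cd163* at the 17.7th. With IPA the order differed from that with vehicle in the lower ranks. At 10 µM *Stab1* (6.71 ± 0.764) stood above *Marco* (4.38 ± 2.14) with overlapping ranges, and at 50 µM *Stab1* (6.17 ± 0.289) again stood above *Marco* (4.04 ± 1.52), with ranges that did not overlap. At 50 µM *Olr1* (18.4 ± 0.702) also stood above *Scarb1* (16.2 ± 1.19), with overlapping ranges. *Adgre1* and *Msr1* kept their ranks in all 3 groups, and at 50 µM their levels (99.99 ± 3.22 and 59.3 ± 3.21) no longer overlapped.

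**Figure D1:**
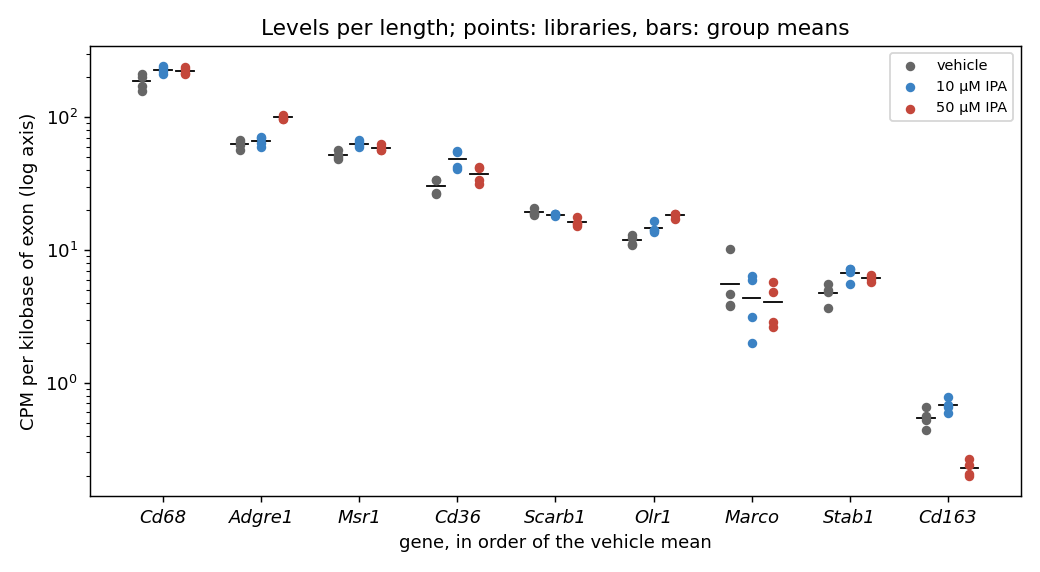
Level of each of the 9 genes in CPM per kilobase of exon on a log axis, with 1 point per library, coloured by group, and a bar at each group mean (4 libraries per group). *Cd68* is highest and *Cd163* lowest in all 3 groups, and the 50 µM points of *Adgre1* (97.3 to 104.5) lie above its vehicle points (56.4 to 67.1).

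At 10 µM IPA, the fitted change was above 0 for 7 of the 9 genes, and 1, *Cd36*, rose and none fell by the test, where 0.410% of all genes tested were called, 0.329% higher and 0.0806% lower. The median log2 fold change of the 9 was 0.30, against -0.01 over all genes tested. An unadjusted p under 0.05 was found for 5 of the 9, against 8.78% of all genes. In 5 genes, *Msr1*, *Cd36*, *Olr1*, *Cd68* and *Stab1*, every library at 10 µM lay above every vehicle library, a pattern of 3.57% of all genes, and in none did every library lie below (2.56% of all genes). At 50 µM, 5 genes passed, *Olr1*, *Stab1* and *Adgre1* higher and *Scarb1* and *Cd163* lower, where 13.5% of all genes were called, 7.00% higher and 6.50% lower. All 50 µM libraries lay above all vehicle libraries in 4 of the 9 (9.45% of all genes) and below them in 2 (10.5%), 8 had an unadjusted p under 0.05 (27.9% of all genes), and the median log2 fold change was 0.28, against 0.01 over all genes. Between the doses 4 passed, *Olr1* and *Adgre1* higher at 50 µM and *Cd36* and *Cd163* lower, where 15.4% of all genes were called, 7.52% higher and 7.85% lower. The libraries of the doses did not overlap in 2 genes that were higher at 50 µM (9.43% of all genes) and 2 that were lower (10.9%), 5 had an unadjusted p under 0.05 (29.5%), and the median over the 9 was -0.11 against 0.01. The 3 comparisons share libraries in pairs, so their values are set side by side and not as separate evidence. The study reports slightly reduced cell viability at the higher dose, which it calls supraphysiological. For that reason it focused its own RNA analysis on the lower dose. Whether reduced viability had a part in the changes at the higher dose was not tested.

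**Figure D2:**
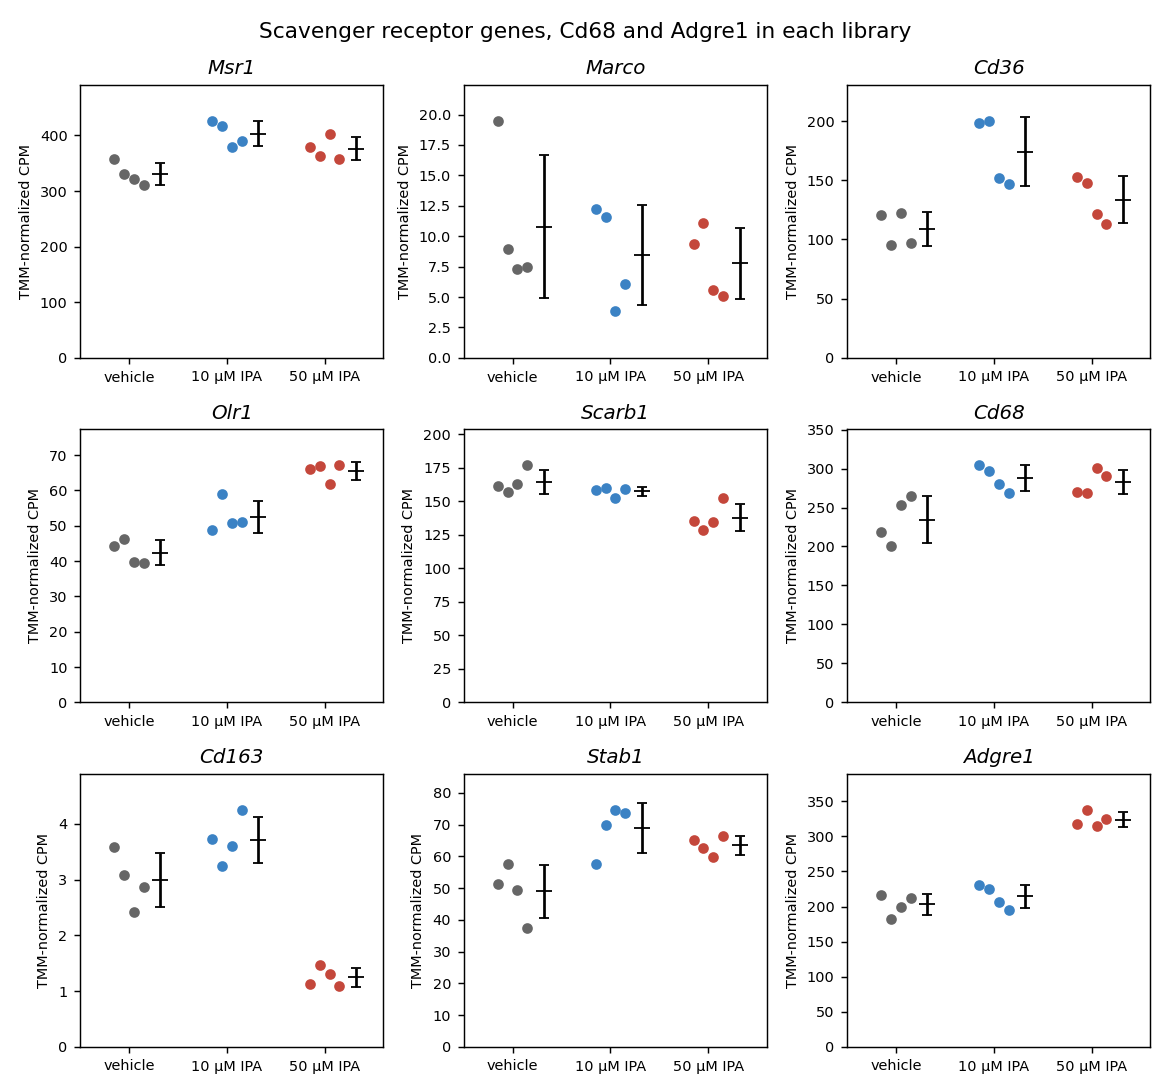
TMM-normalized CPM of each gene (linear axis from 0) in the 4 libraries of each group, with replicates 1 to 4 from left to right, and the mean with its SD as a bar to the right of the points. *Cd36* is highest at 10 µM, *Olr1* has group means of 42.4, 52.4 and 65.6 CPM in order of dose, *Adgre1* is high at 50 µM, *Cd163* is low at 50 µM, and 1 vehicle library of *Marco* (19.5 CPM) stands apart from the others.

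*Cd36* (ENSMUSG00000002944, chromosome 5 of GRCm38, 17781690 to 17888801, minus strand) encodes the fatty acid translocase, which takes up long-chain fatty acids and oxidized LDL. Its level was 121.1, 95.7, 122.1 and 97.3 CPM in the vehicle libraries (replicates 1 to 4), 198.3, 200.5, 151.8 and 146.6 CPM at 10 µM, and 152.6, 148.1, 121.3 and 112.9 CPM at 50 µM. All 10 µM libraries were above all vehicle libraries, while the 50 µM libraries overlapped both other groups. The group means were 109.1 ± 14.5 with vehicle, 174.3 ± 29.1 at 10 µM and 133.7 ± 19.6 at 50 µM (SD, n = 4 each). *Cd36* rose at 10 µM by 0.68 on the log2 scale (SE 0.12, edgeR adjusted p = 0.0450), which is 1.60-fold with a 95% interval from 1.32 to 1.93. At 50 µM it was 1.23-fold the vehicle level (1.04 to 1.46, adjusted p = 0.103) and did not pass, except without a filter on low counts (0.0450). It was lower at 50 µM than at 10 µM, at -0.38 on the log2 scale (SE 0.11, edgeR adjusted p = 0.0346).

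The rise of *Cd36* at 10 µM lost its call in 6 of 8 omissions of a single library. The adjusted p was then 0.122, 0.197 and 0.0894 without 10 µM replicates 1, 2 and 3, and 0.118, 0.121 and 0.0677 without vehicle replicates 1, 2 and 3, while the change itself stayed between 0.60 and 0.75 on the log2 scale over the 8 omissions. The difference of *Cd36* between the doses lost its call in 4 of 8, at 0.0808 and 0.121 without 10 µM replicates 1 and 2 and 0.0947 and 0.118 without 50 µM replicates 3 and 4, and also with all 12 libraries in the fit (0.0549).

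*Scarb1* (ENSMUSG00000037936, chromosome 5, 125277087 to 125341094, minus strand), the other class B gene, encodes SR-BI, the receptor that exchanges cholesterol with HDL. Its level ran from 156.7 to 177.2 CPM with vehicle, 152.9 to 160.2 at 10 µM and 128.7 to 152.3 at 50 µM. The 50 µM libraries were all below the libraries of both other groups. *Scarb1* fell at 50 µM, at -0.25 on the log2 scale (SE 0.08, edgeR adjusted p = 0.0457), to 0.843 of the vehicle level (95% interval 0.753 to 0.943). At 10 µM the log2 fold change was -0.06 (interval -0.19 to 0.07, adjusted p = 0.867), and between the doses it was -0.19 (adjusted p = 0.0576), which passed with DESeq2 (0.0273), limma-voom (0.0483), at least 10 counts in every library (0.0498) and an offset for exon length (0.0466), and without 50 µM replicate 4 (0.0268). The fall against vehicle lost its call with the offset for exon length (0.0695) and in 6 of 8 omissions of a single library, at 0.0730, 0.108 and 0.0511 without vehicle replicates 1, 3 and 4 and 0.0843, 0.124 and 0.0866 without 50 µM replicates 1, 2 and 3. Within a library, *Cd36* stood at 1.58 ± 0.240 times *Scarb1* per length with vehicle, 2.61 ± 0.412 times at 10 µM and 2.32 ± 0.461 times at 50 µM (SD, n = 4 each).

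*Olr1* (ENSMUSG00000030162, chromosome 6, 129485244 to 129507165, minus strand) encodes LOX-1, which binds oxidized LDL and is also a surface marker of suppressive neutrophil-like cells in people. Its level was 44.3, 46.3, 39.6 and 39.4 CPM with vehicle, 48.8, 59.1, 50.7 and 51.1 CPM at 10 µM and 66.1, 67.05, 61.9 and 67.2 CPM at 50 µM. The 3 groups did not overlap. *Olr1* was 1.24-fold the vehicle level at 10 µM (95% interval 1.09 to 1.40, adjusted p = 0.210 from edgeR's test), which did not pass. At 50 µM it rose 1.55-fold (interval 1.39 to 1.75), which is 0.64 on the log2 scale (SE 0.08, edgeR adjusted p = 0.000165). It was also higher at 50 µM than at 10 µM, by 0.33 on the log2 scale (SE 0.07, edgeR adjusted p = 0.00681). Both calls were kept whichever 1 of the 8 libraries was omitted, the largest adjusted p being 0.00160 against vehicle and 0.0254 against 10 µM.

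*Adgre1* (ENSMUSG00000004730, chromosome 17, 57358691 to 57483527, plus strand), which encodes F4/80, was raised at 50 µM. Its level was 217.1, 182.6, 199.9 and 212.4 CPM with vehicle, 231.3, 225.1, 206.8 and 195.4 CPM at 10 µM and 317.5, 338.3, 315.1 and 324.1 CPM at 50 µM. The 10 µM libraries overlapped those with vehicle, and all 50 µM libraries lay above both. At 10 µM the change was 1.06-fold (95% interval 0.942 to 1.19, adjusted p = 0.863 from edgeR's test). At 50 µM *Adgre1* rose 1.60-fold (interval 1.44 to 1.79), which is 0.68 on the log2 scale (SE 0.07, edgeR adjusted p = 7.49e-05), and it stood at 1.51 times the 10 µM level (interval 1.37 to 1.66, adjusted p = 1.60e-05). Neither call of *Adgre1* was lost on omission of any 1 library (largest adjusted p 0.000787 against vehicle and 0.000146 against 10 µM).

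*Cd68* (ENSMUSG00000018774, chromosome 11, 69664213 to 69666153, minus strand) encodes the lysosomal glycoprotein used as a general macrophage marker. Its level was 218.6, 200.1, 253.7 and 265.3 CPM with vehicle, 304.5, 297.4, 280.1 and 268.8 CPM at 10 µM and 270.3, 268.7, 300.2 and 290.7 CPM at 50 µM. Every library with IPA was above every vehicle library, with the lowest of them (268.7) close to the highest with vehicle (265.3). The change was 1.23-fold at 10 µM (95% interval 1.07 to 1.41, adjusted p = 0.266 from edgeR's test) and 1.21-fold at 50 µM (interval 1.05 to 1.39, adjusted p = 0.0674), and neither passed. The doses differed by a log2 fold change of -0.02 (interval -0.16 to 0.11, adjusted p = 0.854). The 50 µM value passed without replicate 4 of the vehicle group, the highest vehicle library, with an adjusted p of 0.00994. It also passed with DESeq2's test (adjusted p = 0.0407), with all 12 libraries in the fit (0.0356), without a filter on low counts (0.0397) and with an offset for exon length (0.0485).

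The ratio of *Adgre1* to *Cd68* was lowest at 10 µM and highest at 50 µM. Within a library, *Adgre1* stood at 0.306 to 0.386 of *Cd68* per length with vehicle, 0.282 to 0.295 at 10 µM and 0.4075 to 0.489 at 50 µM. The 3 ranges did not overlap.

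Of the class A genes, *Msr1* (ENSMUSG00000025044, chromosome 8, 39581685 to 39642673, minus strand) encodes the trimeric receptor of acetylated LDL and of bacterial lipids. It stood between 310.7 and 358.0 CPM with vehicle, 379.3 and 426.7 at 10 µM and 357.7 and 403.1 at 50 µM. The 10 µM libraries were all above those with vehicle, and the lowest 50 µM library lay just under the highest vehicle library. *Msr1* was 1.22-fold the vehicle level at 10 µM (95% interval 1.11 to 1.35, adjusted p = 0.103 from edgeR's test) and 1.14-fold at 50 µM (interval 1.03 to 1.27, adjusted p = 0.0898), and neither passed. The value at 10 µM passed with DESeq2's test (adjusted p = 0.00609), and that at 50 µM with an offset for exon length (adjusted p = 0.0451). Per length, *Msr1* kept within 0.232 to 0.327 of *Cd68* in the vehicle libraries, 0.268 to 0.288 at 10 µM and 0.244 to 0.278 at 50 µM.

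*Marco* (ENSMUSG00000026390, chromosome 1, 120474538 to 120505024, minus strand), a class A receptor of bacteria and inhaled particles, was the most variable of the genes. Its level was 19.5, 8.94, 7.30 and 7.43 CPM with vehicle, 12.3, 11.6, 3.87 and 6.04 CPM at 10 µM and 9.37, 11.1, 5.58 and 5.08 CPM at 50 µM. Replicates 1 and 2 were above replicates 3 and 4 in each group, and the ranges of the groups overlapped. Its SD was 54.3% of the mean with vehicle, 48.9% at 10 µM and 37.6% at 50 µM, against at most 17.1% for any other of the 9 genes. The log2 fold change was -0.36 at 10 µM (95% interval -1.21 to 0.48, adjusted p = 0.885 from edgeR's test) and -0.46 at 50 µM (interval -1.15 to 0.23, adjusted p = 0.383). The lower ends of these intervals are 0.433 and 0.449 of the vehicle level. Without replicate 1 of the vehicle group the value at 10 µM was 0.10 (adjusted p = 0.998) and that at 50 µM -0.02 (adjusted p = 0.979).

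*Stab1* (ENSMUSG00000042286, chromosome 14, 31139013 to 31168641, minus strand) encodes stabilin-1, which clears altered proteins and is found on alternatively activated macrophages and sinusoidal endothelium. It stood between 37.5 and 57.45 CPM with vehicle, 57.6 and 74.8 at 10 µM and 59.7 and 66.5 at 50 µM, so that the libraries of both doses lay above those with vehicle. At 10 µM it was 1.41-fold the vehicle level (95% interval 1.17 to 1.70, adjusted p = 0.157 from edgeR's test) and did not pass. At 50 µM it rose 1.30-fold (interval 1.11 to 1.53), which is 0.38 on the log2 scale (SE 0.11, edgeR adjusted p = 0.0326). The log2 difference between the doses was -0.12 (interval -0.29 to 0.06, adjusted p = 0.381). The call for *Stab1* at 50 µM was lost in 6 of 8 omissions of a single library, at 0.0673 and 0.0788 without vehicle replicates 1 and 3 and 0.0863, 0.0848, 0.0540 and 0.0920 without 50 µM replicates 1, 2, 3 and 4. The value at 10 µM passed with DESeq2's test (adjusted p = 0.0184), with an offset for exon length (0.0156), without a filter on low counts (0.0266) and with all 12 libraries in the fit (0.0498).

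The exons of *Stab1* share 112 bases with those of *Nt5dc2* on the opposite strand, and the strand setting of the counting is not given in the sources used here. *Nt5dc2* stood at 43.8 ± 6.55 CPM with vehicle, 46.9 ± 0.969 at 10 µM and 32.4 ± 4.93 at 50 µM (SD, n = 4 each). Its part in the *Stab1* counts was not tested. No other of the 9 genes shares exon bases with a neighbour in the annotation.

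*Cd163* (ENSMUSG00000008845, chromosome 6, 124304656 to 124330527, plus strand), the haemoglobin scavenger receptor of mature tissue macrophages, had the largest fitted change of the 9 genes at 50 µM, a fall. Its level was 3.59, 3.08, 2.42 and 2.86 CPM with vehicle, 3.73, 3.24, 3.61 and 4.26 CPM at 10 µM and 1.12, 1.47, 1.31 and 1.09 CPM at 50 µM. These levels rested on 54 to 95 reads per library with vehicle, 67 to 103 at 10 µM and 23 to 40 at 50 µM. The 50 µM libraries were all below those of the other groups, which overlapped each other. *Cd163* fell at 50 µM to 0.421 of the vehicle level (95% interval 0.297 to 0.598), which is -1.25 on the log2 scale (SE 0.23, edgeR adjusted p = 0.00371), and to 0.339 of the 10 µM level (interval 0.245 to 0.470, adjusted p = 0.000190). At 10 µM it was 1.24-fold the vehicle level (interval 0.944 to 1.63, adjusted p = 0.712). Omitting any 1 library left both falls called (largest adjusted p 0.0155 against vehicle and 0.00109 against 10 µM). Set against *Stab1* in the same library, *Cd163* stood at 0.117 ± 0.0245 per length with vehicle, 0.102 ± 0.0162 at 10 µM and 0.0372 ± 0.00647 at 50 µM (SD, n = 4 each).

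**Figure D3:**
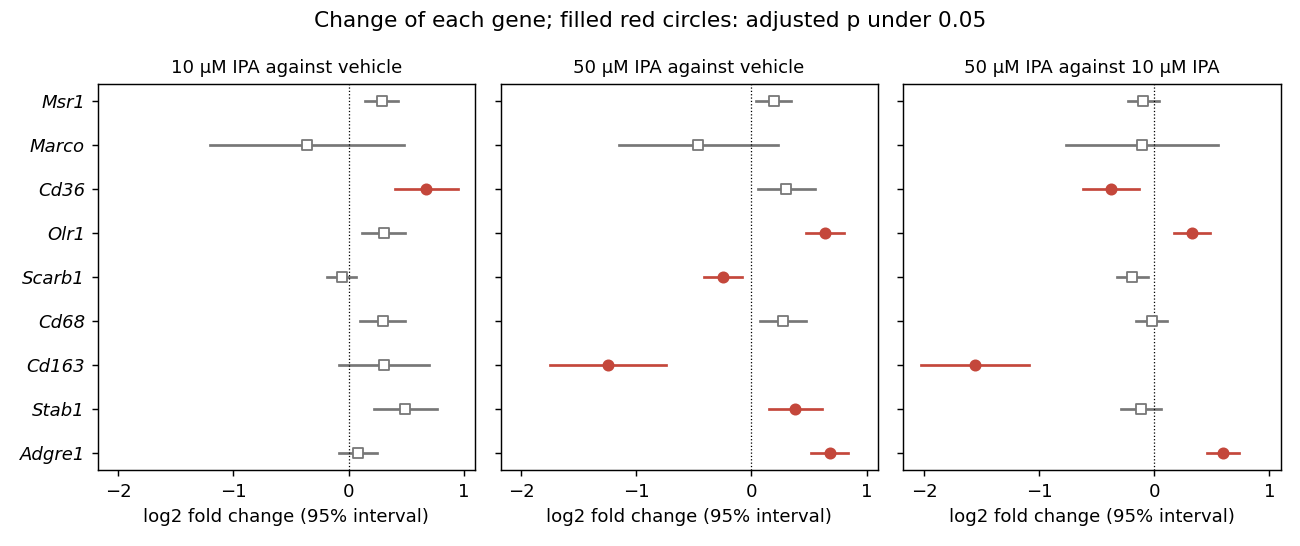
Log2 fold change of each gene in the 3 comparisons, with its 95% interval from edgeR's quasi-likelihood fit, where filled red circles passed an adjusted p of 0.05 and open squares did not. *Cd36* alone passed at 10 µM, the rises of *Olr1* and *Adgre1* and the fall of *Cd163* at 50 µM passed against both other groups, and the interval of *Marco* is the widest of the 9 in each comparison.

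Other genes of the same pathways were counted from lists that did not hold the 9 genes. *Mrc1*, *Cd14*, *Scarb2*, *Stab2*, *Apoe*, *Nr1h3*, *Pparg* and *Trem2* stand in more than 1 of them. Of 19 further scavenger receptors, 13 were tested, and at 10 µM 1 of them, the mannose receptor *Mrc1*, rose (log2 fold change 0.62, adjusted p = 0.0375 from edgeR's test), with a median of 0.22 over the 13. At 50 µM 3 fell and none rose against vehicle, namely *Mrc1* (-0.69, adjusted p = 0.00232), the hyaluronan receptor *Cd44* (-0.34, adjusted p = 0.00452) and *Cxcl16* (-0.40, adjusted p = 0.0111), a chemokine that is also a receptor of oxidized lipids, with a median of -0.16. Against 10 µM, 7 of the 13 fell at 50 µM and none rose, with a median of -0.33. Among them were *Mrc1* (-1.32, adjusted p = 1.96e-07), *Cxcl16* (-0.49, adjusted p = 0.000316) and the large endocytic receptor *Lrp1* (-0.71, adjusted p = 0.000360).

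Of 20 genes of lipoprotein handling and foam cells, 19 were tested. At 10 µM 2 rose and none fell (6 and 0 with DESeq2), lipoprotein lipase *Lpl* (log2 fold change 0.43, adjusted p = 0.0375) and *Gpnmb*, a glycoprotein of lipid-laden macrophages (0.61, adjusted p = 0.0385). At 50 µM 4 rose and 4 fell against vehicle. *Gpnmb* (1.12, adjusted p = 4.39e-06) and *Lpl* (0.94, adjusted p = 6.59e-06) were among the rises. The lipid-sensing nuclear receptor *Pparg* was among the falls (-0.68, adjusted p = 0.00165). The medians were 0.18 at 10 µM and 0.03 at 50 µM. Between the doses 2 rose and 6 fell at 50 µM, with a median of -0.15, *Lpl* higher (0.51, adjusted p = 2.47e-05) and the cholesterol exporter *Abcg1* (-0.51, adjusted p = 4.58e-05) and *Apoe* (-1.39, adjusted p = 1.94e-06) lower.

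Relatives of *Cd68* and *Adgre1* were counted in the same way. Of 11 LAMP and other lysosomal membrane genes, 9 were tested, none was called at 10 µM (0 at an unadjusted p under 0.05, 0 with DESeq2 and limma-voom), 1 rose at 50 µM (*Lamp1*, log2 fold change 0.24, adjusted p = 0.0303) and 1 fell between the doses (*Laptm5*, -0.24, adjusted p = 0.0157). The median over the 9 was 0.05 at 10 µM, 0.04 at 50 µM (-0.02 with the offset for exon length) and 0.02 between the doses. Of 11 other adhesion GPCRs, all tested, none was called at 10 µM by edgeR's test (3 at an unadjusted p under 0.05, 0 with DESeq2 and limma-voom). At 50 µM 2 rose and 2 fell against vehicle, with *Adgrg3* (-0.42, adjusted p = 0.00453), *Adgrg5* (1.12, adjusted p = 0.00916) and *Adgrl4* (-1.36, adjusted p = 0.0216) at the smallest adjusted p. Between the doses 2 rose and 3 fell, *Adgrl2* among the falls (-0.57, adjusted p = 0.00319). The rises were *Adgre4* (1.10, adjusted p = 6.89e-05) and *Adgre5* (0.33, adjusted p = 0.00436), and the medians of the 3 comparisons were -0.14, -0.18 and 0.03 in the same order.

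Of 16 transcription factors of macrophages, 2 rose and 4 fell at 50 µM against vehicle. *Irf8*, which directs monocyte and dendritic cell fate, rose (log2 fold change 0.40, adjusted p = 0.00142), and *Pparg* and *Klf4* (-0.59, adjusted p = 0.00203) fell. Between the doses 1 rose and 4 fell at 50 µM, *Klf4* (-0.90, adjusted p = 7.69e-06), *Pparg* (-0.68, adjusted p = 0.000297) and *Tfec* (-0.51, adjusted p = 0.000775) among the falls. The median log2 fold changes were 0.03 at 10 µM, -0.13 at 50 µM and -0.15 between the doses.

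Markers of cell types that such cultures can hold differed between the groups, and their summed levels are given beside the results. Of 17 macrophage markers other than the 9 genes, 15 were tested, and 2 rose at 10 µM (8 with DESeq2), 1 rose and 5 fell at 50 µM, and 12 fell and none rose between the doses, with medians of 0.41, -0.04 and -0.44. Their summed level ran from 3590 to 4003 CPM with vehicle, 4361 to 4938 at 10 µM and 3633 to 4030 at 50 µM. Within it *Ctsb* had group means of 1205, 1600 and 1412 CPM (adjusted p = 0.148 at 10 µM from edgeR's test). Like the summed level, the group means of *Msr1*, *Cd36*, *Cd68*, *Stab1* and *Cd163* were highest at 10 µM. Those of *Adgre1* and *Olr1* were highest at 50 µM and those of *Scarb1* and *Marco* with vehicle. The colony-stimulating factor receptor *Csf1r*, a defining marker, had a log2 fold change of 0.09 at 10 µM (adjusted p = 0.721) and -0.34 at 50 µM (adjusted p = 0.0077). Of the 15 tested, 14 had a log2 fold change above 0 at 10 µM and 6 at 50 µM against vehicle. The rises called at 10 µM were *Mrc1* (0.62, adjusted p = 0.0375) and *C1qb* (0.44, adjusted p = 0.0474), and that at 50 µM was *Lgmn* (0.76, adjusted p = 0.000755). The 6 markers of Ly6C-high monocytes summed to 2687 to 3423 CPM with vehicle, 3837 to 4923 at 10 µM and 2417 to 3120 at 50 µM, where 1 rose at 10 µM (*Fn1*, 0.82, adjusted p = 0.0102), 3 fell at 50 µM and 5 fell between the doses. At 10 µM, 5 of these 6 had a log2 fold change above 0 and 1 below, with a median of 0.38. The gene below 0 was *Ly6c2* (-0.12, adjusted p = 0.857 from edgeR's test). At 50 µM *Ly6c2* stood at -0.38 against vehicle (adjusted p = 0.0658) and was not called. *Fn1* alone had group means of 1450, 2552 and 1695 CPM, and the 3 that fell at 50 µM were *Ccr2* (-0.76, adjusted p = 0.00153), *F13a1* (-1.92, adjusted p = 0.00357) and *Vcan* (-0.74, adjusted p = 0.000818). The 15 neutrophil markers summed to 24760 to 34140 CPM with vehicle, 23190 to 26380 at 10 µM and 18530 to 24650 at 50 µM. None of the 15 was called at 10 µM by edgeR's test, where 4 had an unadjusted p under 0.05 (1 with DESeq2, 0 with limma-voom), and at 50 µM 1 rose and 8 fell against vehicle and 1 rose and 7 fell against 10 µM. The 9 dendritic cell markers summed to 695.1 to 753.6, 732.3 to 874.6 and 719.6 to 899.3 CPM, with none called at 10 µM (2 at an unadjusted p under 0.05, 1 with DESeq2, 0 with limma-voom), 4 higher at 50 µM and 2 higher between the doses. The part of cell composition in the changes of the 9 genes was not tested.

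Markers of cell types outside the myeloid lineages that can hold some of these receptors were also counted. Of 8 endothelial markers, which bear on *Stab1*, *Scarb1* and *Cd36*, 5 were tested, *Cdh5* had between 4 and 22 reads in a library and *Stab2* between 0 and 12, and the list summed to 46.5 to 62.9 CPM with vehicle, 64.4 to 78.1 at 10 µM and 47.4 to 59.7 at 50 µM, most of it *Pecam1*, which myeloid cells express. None of the 5 was called against vehicle at either dose, with 2 at 10 µM and 0 at 50 µM at an unadjusted p under 0.05 and 0 with DESeq2 and limma-voom, and 1 fell between the doses. Of 8 adipocyte and stromal markers, 2 were tested, *Adipoq* had at most 2 reads in a library and *Plin1* none, and 1 fell at 50 µM against each other group, none at 10 µM (0 at an unadjusted p under 0.05 and by both other tools). This list summed to at most 12.1 CPM in any library. Of 9 erythroid and megakaryocyte markers, 4 were tested, none was called at 10 µM (2 at an unadjusted p under 0.05), 1 rose at 50 µM and none was called between the doses (1 at an unadjusted p under 0.05), with 0 by both other tools where none was called, and the list summed to 175.7 to 235.4 CPM over the 12 libraries. Most of that sum was *Pf4* (2295 to 4498 reads in a library), the gene that rose at 50 µM, and *Itga2b* (1232 to 2304), while *Gp9* had 52 to 159. Whether these reads came from megakaryocytes was not tested. Lymphocyte markers summed to 17.8 to 37.2 CPM over the 12 libraries, and of the 4 tested of 7 none was called at 10 µM (1 at an unadjusted p under 0.05, 0 by both other tools) and 3, all of B cells, rose at 50 µM against each other group.

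For each of the 9 genes, the 2 genes with the most similar profile were found as those with the smallest root mean square difference of centred log2 CPM over the 12 libraries, among the 10193 (for *Cd163* 10194) other tested genes whose mean reached 5 CPM. The measure is a description, and the profiles share the same libraries and doses. For *Adgre1* these were *Mthfd2* (0.0877, against a median of 0.350 over all genes compared), a mitochondrial folate enzyme, and *Fam43a* (0.0923). *Mthfd2* stood at 113.4, 110.6 and 186.8 CPM in the vehicle, 10 µM and 50 µM groups. For *Olr1* they were *Clip2* (0.0813) and *2900026A02Rik* (0.0843, median 0.316), and for *Cd36* *Blnk* (0.148), a B cell adaptor, and *Mfge8* (0.166, median 0.368), a bridging protein between dying cells and phagocytes. For *Cd163*, *Gpr35* (0.224) and *Ak8* (0.248) were nearest (median 0.680), and *Gpr35* stood at 41.9, 54.3 and 19.1 CPM. The nearest to *Cd68* were *Mmp8* (0.0668) and *Il11ra1* (0.0693), to *Msr1* *Nhlrc3* (0.0679) and the V-ATPase subunit *Atp6v0c* (0.0746), to *Stab1* *Peak1* (0.0934) and *Myof* (0.120), and to *Scarb1* *Cggbp1* (0.0434) and *Msl3* (0.0463). No gene came close to *Marco*, where the nearest, *Ccnyl1* and *Pop7*, differed by 0.445 and 0.455 against a spread of 0.611 in *Marco* itself.

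**Figure D4:**
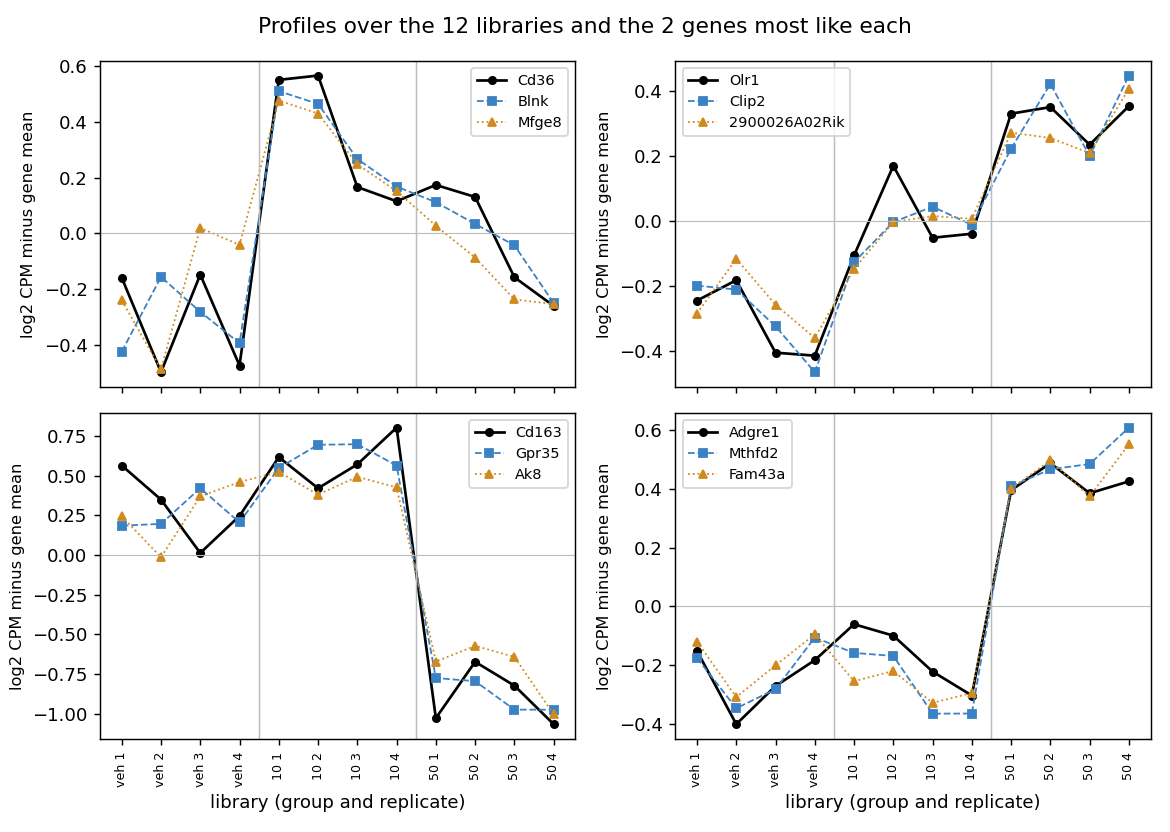
Log2 CPM minus the gene's own mean in each of the 12 libraries (vehicle, 10 µM and 50 µM, replicates 1 to 4) for *Cd36*, *Olr1*, *Cd163* and *Adgre1* (black) and the 2 genes with the smallest root mean square difference from each (blue and orange). *Adgre1* steps up and *Cd163* steps down at 50 µM, *Olr1* is between its other levels at 10 µM, and *Cd36* is highest in replicates 1 and 2 at 10 µM.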

How the data were processed

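Per the study's methods and labels, trimming was done with Atropos, alignment to mm10 with hisat2 2.2.1 and counting on Ensembl release GRCm38.92 with featureCounts 2.0.1. The values the authors deposited are raw counts per gene, with no filter and no normalization. Replicate numbers follow the library names, since 1 title repeats another. The filter (over 0.5 CPM in 2 or more of the 12 libraries) kept 14894 genes, and pairs of groups were tested on 8 libraries with edgeR 4.0.16 (TMM, glmQLFit, glmQLFTest) in R 4.3.3. Standard errors are the log2 fold change over the root of the F statistic. Exon lengths, positions and overlaps came from GENCODE M21 on GRCm38, a later release than the one counted on. Profiles used log2(CPM + 0.1). The alternatives were DESeq2 1.42.0, limma-voom (limma 3.58.1), scaling by DESeq2's size factors, dropping the filter, requiring 10 counts in each library, all 12 libraries in the fit, a replicate block, an exon length offset (lowess, span 0.3), CPM without TMM and leaving out each library. The fitting code was tested on simulated data. Where no gene was changed, DESeq2 made 10 false calls and edgeR and limma-voom 0. Where 200 genes were changed, false calls were 30 with DESeq2 and 9 with each of the others.

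The 9 genes and the lists, written from general knowledge, were chosen with earlier results of these data known. Genes outside the 9 were named by rule, up to 3 called genes of smallest adjusted p per list and comparison, and the 2 nearest profiles per gene. *Csf1r*, *Ly6c2*, *Ctsb*, *Nt5dc2* and the markers named by read count were chosen after their values were seen. Within groups, no library was a copy of another. The calls at 10 µM among the macrophage transcription factors are not reported here.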

Additional observations from a re-analysis of the deposited data

Results flagged for a closer look

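Of 27 sets of 4 libraries (9 genes in 3 groups), 1 held a library far from the rest by Dixon's criterion, and chance alone marks about 1 in 20. *Marco* in replicate 1 of the vehicle group was measured at 19.5 CPM, where the rest of that group lay between 7.30 and 8.94 CPM, so that its gap to the nearest was 0.865 of the group's range.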

How the results depend on the processing

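At 10 µM, 1 of the 9 genes passed, and the number was 3 with DESeq2 (*Cd36*, *Msr1* and *Stab1*), 2 (*Cd36* and *Stab1*) without a filter, with all 12 libraries or with the exon length offset, 0 with the replicate block, and between 0 and 1 with 1 library left out. At 50 µM, 5 passed, and the number was 7 without a filter, 6 with DESeq2, all 12 libraries, the replicate block or the exon length offset, and between 3 and 5 with 1 library left out, where *Olr1*, *Adgre1* and *Cd163* passed in every fit. Between the doses 4 passed, and the number was 5 with DESeq2, limma-voom, at least 10 counts in every library or the exon length offset (*Scarb1* added, lower at 50 µM), 3 with all 12 libraries (*Cd36* lost, adjusted p = 0.0549), and 3 or 4 with 1 library left out. Reversals of sign came only in fits that left out 1 library, which ranged from -0.61 to 0.10 for *Marco* at 10 µM (above 0 without vehicle replicate 1), from -0.35 to 0.15 for *Marco* between the doses (above 0 without replicates 1 or 2 at 10 µM, or 3 or 4 at 50 µM) and from -0.054 to 0.0089 for *Cd68* between the doses (above 0 without replicate 1 at 10 µM or 2 at 50 µM). None of these had passed the test. Of the fold changes recomputed under these settings, 382 kept direction and side of the threshold, 25 lost and 18 gained the call, and 7 reversed. Group means without TMM moved by less than 1 SD in all 27 cases. Over all genes, libraries of the same replicate number were no more alike than others. Correlations of their deviations ran from -0.242 to 0.142, against -0.255 to 0.272 for other pairs. This measure does not cover single genes such as *Marco*. With the replicate block, *Cd36* had an adjusted p of 0.226 at 10 µM, *Cd68* 0.0366 at 50 µM against vehicle, and over all genes 3 in place of 61 were called at 10 µM. Calls over all genes at 10 µM were 250 with DESeq2, 150 without a filter, 118 with all 12 libraries, 102 with the exon length offset and between 4 (without 10 µM replicate 2) and 122 (without vehicle replicate 4) with 1 library left out. At 50 µM against vehicle 2010 genes were called, and 1247 and 1313 without vehicle replicate 3 and 50 µM replicate 2. Depth limits *Cd163*, at 23 to 103 reads, most.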
